A study of Mus musculus with 8 samples.

Results

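The thin filament of the cardiac sarcomere is built from actin, tropomyosin and the troponin complex, and 10 genes that encode its isoforms are described here: Tnni1, Tnni3, Tnnt1, Tnnt2, Tnnc1, Tpm1, Tpm2, Actc1, Acta1 and Acta2. They were picked by gene name, the rule itself using no measured value, and were found by Entrez identifier among the 27179 genes of the count table. All 10 passed the filter on low counts that left 14966 genes for testing. RNA was sequenced from neonatal cardiomyocytes (NCMs) of C57Bl/6 J mice, with 1 male heart per library, collected at birth (postnatal day 0). Dams breathed either filtered air (FA, 4 libraries, replicates 2, 3, 4 and 6) or diesel exhaust (DE, 4 libraries, replicates 1, 3, 5 and 7) from E0.5 to E17.5 of gestation. Atria and vessels were trimmed away, the ventricles were digested with Liberase, and cells that did not attach during plating with Ara-C were kept as NCMs, so cells other than cardiomyocytes could remain.

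In each filament, tropomyosin lies along the actin strand and holds myosin off its binding sites at rest. Troponin C senses calcium, troponin I inhibits contraction until calcium arrives, and troponin T ties the complex to tropomyosin. Several of these proteins exist as an early and an adult isoform in the heart. The fetal heart uses the slow skeletal troponin I (Tnni1), which cardiac troponin I (Tnni3) replaces after birth, and the embryonic heart also makes the smooth muscle and skeletal alpha actins (Acta2 and Acta1) beside the cardiac one (Actc1). The comparison of FA with DE therefore asks both whether each gene differed in level and whether the balance between early and adult isoforms differed.

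Between 17943024 and 39839737 fragments were counted per library, and the 10 genes held between 2.69% and 3.43% of the counts of each. The 13 cardiomyocyte markers were abundant in every library, with a summed level of 60779 to 65704 CPM (counts scaled to library size) in FA and a lower one of 51641 to 58550 CPM in DE. Of the 13, 11 were lower in DE, with 3 called lower (Myh6, Pln and Ldb3) and 1 called higher (Myh7). A large part of that sum was Myh6 alone, with 23286 ± 1520 CPM in FA and 14613 ± 685 in DE. Myh7 went the other way, from 10016 ± 943 CPM in FA to 14485 ± 852 in DE. Names of all FA samples and of DE replicates 1 and 7 carry the number 11 after the group code and before the replicate number, those of DE replicates 3 and 5 the number 12, and what this prefix to the replicate number means is not given in the sources used here. Across all genes, 868 of 14966 (5.8%) passed edgeR's quasi-likelihood test at an adjusted p of up to 0.05 together with a 25% difference and are named called below, 3.58% higher and 2.22% lower in DE (536 and 332 genes). Scaled by library totals alone, 803 were higher and 217 lower. Each library is 1 animal and litters are not named, so p-values measure the spread between these samples.

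By the quasi-likelihood test of edgeR, 0 of the 10 genes were called, and 1 of them, Acta2, had an unadjusted p-value under 0.05, against 25.6% of all tested genes. DESeq2 and edgeR's likelihood ratio test each called 1, again Acta2, against 10.8% and 10.7% of all tested genes. Of the 10, 7 were lower in DE (49.5% of all tested genes were) and 3 higher. Their median log2 fold change was -0.07 against 0.00 for all tested genes. The groups were separated more clearly by the ratio of the troponin I isoforms than by any level. Per Tnni3 count there were 0.996 ± 0.0417 Tnni1 counts in FA and 1.15 ± 0.0283 in DE (SD, n = 4 each), and the groups did not overlap. The ratio to Tnni3 likewise did not overlap for 11.4% of all tested genes. The exact permutation p for Tnni1 to Tnni3 was 0.0286, and 0.143 after Benjamini-Hochberg adjustment over 5 isoform ratios.

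Levels per kilobase of transcript show which isoform mRNAs these samples held. Actc1 was the most abundant of the 10 genes at 8703 ± 1310 CPM per kb in FA and 7559 ± 1011 in DE (SD, n = 4), followed by Tnnt2 at 7451 ± 902 and 7144 ± 942, with overlap between their libraries. Next came Tpm1 (2518 ± 280 in FA), Tnnc1 (2230 ± 385), Tnni3 (1814 ± 308) and Tnni1 (1582 ± 222), neighbours in the order whose libraries overlapped. Acta2 stood below them at 565 ± 136 CPM per kb in FA, and Tnnt1 (44.1 ± 3.21), Tpm2 (37.3 ± 6.00) and Acta1 (35.8 ± 10.3), which overlapped each other, were lower by more than an order of magnitude. By CPM without regard to length, Actc1, Tnnt2 and Tpm1 ranked 8, 11 and 18 among all genes, and Tnnt1 ranked 4692.

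**Figure D1:**
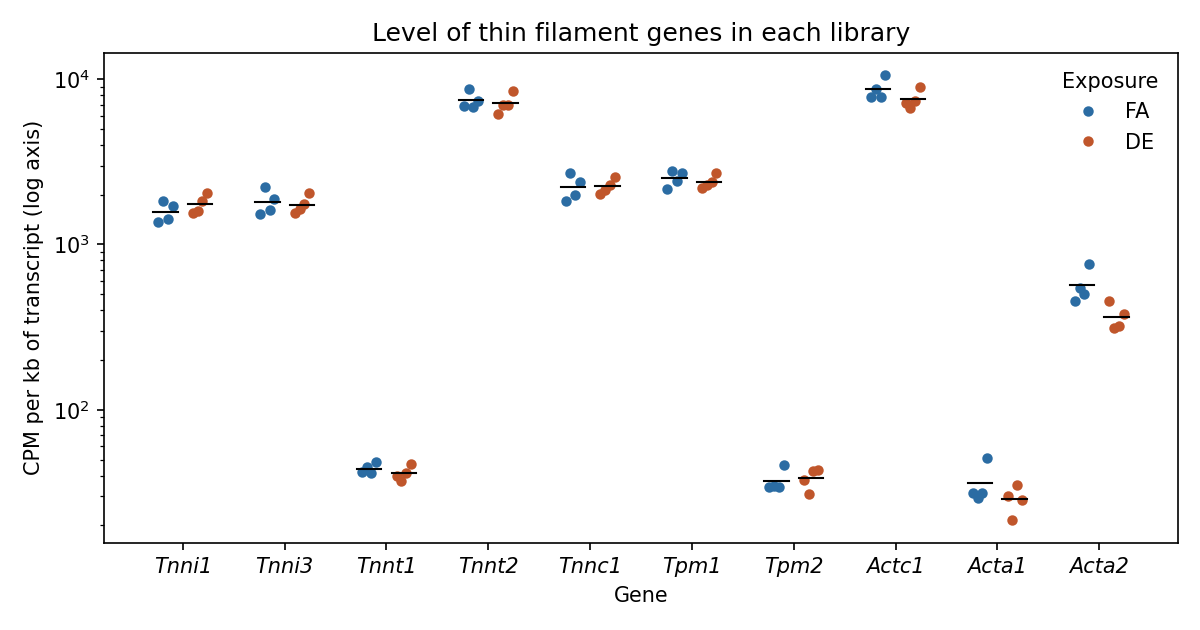
Level of each of the 10 thin filament genes, in CPM per kilobase of transcript on a log axis, with 1 point per library and a horizontal line at the group mean (FA blue, DE orange). FA and DE points overlap for 9 genes, and the 4 DE points of Acta2 lie just below its 4 FA points.

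Troponin I mRNA came from both isoforms in near equal amounts, and protein was not measured. Tnni1 (chr1:135783033-135810989 in GRCm38) encodes the slow skeletal form, which lacks the amino-terminal extension that protein kinase A phosphorylates in the cardiac form. Its level was 1417, 1896, 1478 and 1775 CPM in FA replicates 2, 3, 4 and 6. In DE replicates 1, 7, 3 and 5 it was 1618, 1655, 1888 and 2132 CPM. The groups overlapped, and the log2 fold change was 0.15 (SE 0.13, edgeR quasi-likelihood, adjusted p = 0.483). Tnni3 (chr7:4518305-4522718) encodes the cardiac form. Its level was 1395, 2023, 1482 and 1718 CPM in FA replicates 2, 3, 4 and 6, and 1411, 1491, 1601 and 1859 CPM in DE replicates 1, 7, 3 and 5. Here too the groups overlapped, with a log2 fold change of -0.06 (SE 0.13, edgeR quasi-likelihood, adjusted p = 0.819).

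The 2 troponin I genes varied together from library to library, so that their ratio was far steadier than either level. In FA the coefficient of variation was 14.1% for Tnni1 and 16.98% for Tnni3 but 4.19% for their ratio, and in DE it was 13.1%, 12.3% and 2.47%. Counts of Tnni1 per count of Tnni3 were 1.02, 0.937, 0.997 and 1.03 in FA replicates 2, 3, 4 and 6. They were 1.15, 1.11, 1.18 and 1.15 in DE replicates 1, 7, 3 and 5. Every DE library was thus above every FA library, the nearest being FA replicate 6 and DE replicate 7. The ratio was 15.1% higher in DE (log2 difference 0.20, SE 0.035), and the exact two-sided permutation test gave p = 0.0286, the smallest value that 4 against 4 libraries allow. After Benjamini-Hochberg adjustment over the 5 ratios the p-value was 0.143, which is the lowest possible with 4 against 4 libraries when 1 ratio alone reaches the smallest p, so the adjusted test could not pass a threshold of 0.05 whatever the size of that difference. As a background, the ratio to Tnni3 failed to overlap between the groups for 11.4% of all tested genes. Within the libraries of prefix 11 the log2 difference was 0.18 (exact permutation p = 0.0667, the smallest that 4 against 2 libraries allow), and leaving out each library in turn gave 0.17 to 0.22.

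Per kilobase of transcript, Tnni1 made up 46.6% ± 1.05 of troponin I mRNA in FA and 50.1% ± 0.625 in DE (SD, n = 4). The fast skeletal isoform Tnni2 made up 0.108% in FA and 0.109% in DE. Troponin I mRNA from Tnni1 and Tnni3 together was 3396 ± 526 CPM per kb in FA and 3500 ± 442 in DE, and these totals overlapped. For comparison, the cardiac myosin heavy chains, which also switch around birth in mice, had a Myh7 to Myh6 count ratio of 0.431 ± 0.0437 in FA and 0.991 ± 0.0231 in DE (log2 difference 1.21, exact permutation p = 0.0286). That ratio was 2.31-fold higher in DE, against 1.15-fold for Tnni1 to Tnni3.

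**Figure D2:**
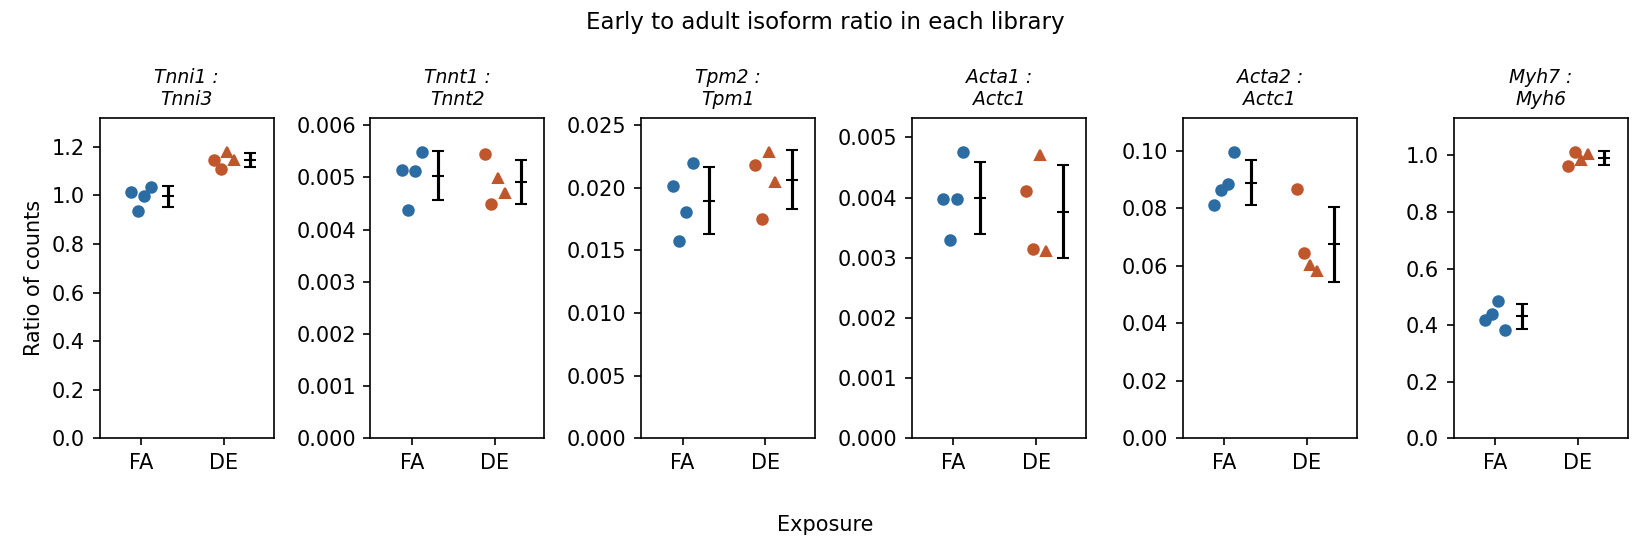
Ratio of counts of the early to the adult isoform in each library, with 1 panel per pair, a linear axis from 0, circles for libraries of prefix 11, triangles for prefix 12, and bars for the mean ± SD. The Tnni1 to Tnni3 ratio lies at 0.937 to 1.03 in FA and at 1.11 to 1.18 in DE, and the Myh7 to Myh6 panel, a reference outside the 10 genes, is separated by a wider gap, whereas the groups overlap in the other 4 panels.

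Troponin T and troponin C genes were not called by edgeR. Tnnt2, the cardiac troponin T, was 7496 to 9655 CPM in FA and 6803 to 9308 CPM in DE (log2 fold change -0.06, SE 0.12, edgeR quasi-likelihood, adjusted p = 0.786). Tnnt1, the slow skeletal troponin T, was 38.5 to 44.9 CPM in FA and 34.7 to 43.7 CPM in DE (log2 fold change -0.09, SE 0.10, edgeR quasi-likelihood, adjusted p = 0.593). With offsets for length and GC content, Tnnt1 was at -0.27 (adjusted p = 0.0469) and Tnnt2 at -0.23 (adjusted p = 0.0912), below a 25% difference and so not called. Tnnt2 made up 99.4% of troponin T mRNA per kilobase in both groups. The Tnnt1 to Tnnt2 count ratio was 0.00503 ± 0.000468 in FA and 0.00491 ± 0.000418 in DE (log2 difference -0.04, exact permutation p = 0.657), and the groups overlapped, as they did for the ratio to Tnnt2 of all but 11.1% of tested genes. Tnnc1, the only troponin C of the heart and of slow muscle, was 1608 ± 277 CPM in FA and 1623 ± 169 CPM in DE, with a log2 fold change of 0.01 and a 95% interval of -0.28 to 0.30.

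Tnni3 and Tnnt1 are neighbours on chromosome 7 with 2329 bases between them, and Tnni1 and Tnnt2 lie close together on chromosome 1. On the other side of Tnnt1, at 805 bases, lies Ppp1r12c, which encodes a targeting subunit of myosin phosphatase. Ppp1r12c was 63.9, 69.6, 65.8 and 62.2 CPM in FA replicates 2, 3, 4 and 6 and 84.8, 78.3, 107 and 97.4 CPM in DE replicates 1, 7, 3 and 5. It rose in DE (log2 fold change 0.49, SE 0.11, edgeR quasi-likelihood, adjusted p = 0.0291), while Tnnt1 beside it was not called. With prefix as a term its log2 fold change was 0.32 (adjusted p = 0.128). Without FA replicate 2, 3, 4 or 6 or DE replicate 3 or 5 it was 0.41 to 0.52 (adjusted p from 0.0517 to 0.0963). None of the other counted genes within 5 kb of the 10 genes was called, among them Stambpl1, which lies 2 bases from Acta2 (log2 fold change 0.05), and Car9, which overlaps Tpm2 by 4 bases (-0.35, adjusted p = 0.261).

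Tropomyosin mRNA in these samples was mostly Tpm1, the alpha form that dominates the mouse heart. Tpm1 ranged from 3571 to 4583 CPM in FA and from 3614 to 4440 CPM in DE, with a log2 fold change of -0.08 (SE 0.11, edgeR quasi-likelihood, adjusted p = 0.703). Tpm2, the beta form found in the embryonic heart and in skeletal muscle, was 71.8, 72.3, 71.6 and 97.1 CPM in FA replicates 2, 3, 4 and 6. In DE replicates 1, 7, 3 and 5 it was 78.8, 65.4, 89.4 and 90.7 CPM (log2 fold change 0.05, SE 0.14, edgeR quasi-likelihood, adjusted p = 0.835). FA replicate 6 stood above the other FA libraries and above all DE libraries. Tpm2 made up 1.46% of Tpm1 and Tpm2 per kilobase in FA and 1.59% in DE. Counts of Tpm2 per count of Tpm1 were 0.0190 ± 0.00265 in FA and 0.0206 ± 0.00232 in DE (log2 difference 0.13, exact permutation p = 0.371, 0.619 after adjustment over the 5 ratios), and the groups overlapped. The ratio to Tpm1 did not overlap for 14.8% of tested genes.

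The 3 alpha actins differ little in protein and are encoded by separate genes, whose coding starts are shown to let a reader see how far the reads of 1 can be told from those of another. Each line gives the first 60 coding bases of the coding (sense) strand in the GRCm38 genome, with bases that are not shared by all 3 genes in capitals (19 of 60 positions). The lines stand for chr2:114051972-114052031, chr8:123893638-123893697 and chr19:34252494-34252553, all on the minus strand.
Actc1: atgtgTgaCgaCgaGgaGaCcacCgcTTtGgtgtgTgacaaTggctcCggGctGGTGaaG
Acta1: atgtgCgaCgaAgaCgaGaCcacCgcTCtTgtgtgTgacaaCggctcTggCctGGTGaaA
Acta2: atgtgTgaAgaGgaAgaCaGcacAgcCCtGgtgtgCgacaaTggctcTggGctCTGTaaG
Over the whole coding sequence of 1131 bases, Actc1 and Acta1 were identical at 86.3% of positions, Actc1 and Acta2 at 82.6% and Acta1 and Acta2 at 85.4%. The longest run identical in all 3 was 23 bases. Of the 50-base stretches of a representative transcript, 2.22% in Acta1 and 0.352% in Acta2 also occurred in another annotated gene, and 0% in Actc1 and the 7 troponin and tropomyosin genes. No 100-base stretch was shared. Read length and the treatment of reads with several matches are not given in the sources used here, so the part of shared reads in the counts of Acta1 and Acta2 was not tested.

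Acta2 had the largest difference of the 10 genes. This gene (chr19:34240336-34255585) encodes the alpha actin of smooth muscle, which embryonic cardiomyocytes also make. Its level was 927, 1108, 1015 and 1550 CPM in FA replicates 2, 3, 4 and 6. In DE replicates 1, 7, 3 and 5 it was 920, 633, 655 and 774 CPM. All DE libraries were below all FA libraries, but DE replicate 1 and FA replicate 2 nearly touched. The log2 fold change was -0.63 (SE 0.17, 95% interval -1.0 to -0.25), which is 0.648 times the FA level. Its adjusted p was 0.0562 (edgeR quasi-likelihood), just past the threshold of 0.05, so Acta2 was not called. Levels failed to overlap for 1 of the 10 genes (10%) and for 14.7% of all tested genes (7.26% lower and 7.44% higher in DE). Acta2 was called by DESeq2 (adjusted p = 0.00936) and by edgeR's likelihood ratio test (adjusted p = 0.0112), and with the libraries of prefix 11 alone the log2 fold change was -0.57 (edgeR quasi-likelihood, adjusted p = 0.217). Without DE replicate 1 it was -0.74 and was called (adjusted p = 0.0316).

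Of 10 marker genes of smooth muscle and pericytes, 7 were higher and 3 lower in DE and 0 were called by edgeR or DESeq2 (2 at an unadjusted p under 0.05), and their summed level ranged from 630 to 865 CPM in FA and from 601 to 829 CPM in DE. A large part of that sum was Abcc9 alone, with 400.3 ± 70.2 CPM in FA and 298 ± 55.8 in DE. Over all tested genes, 5.8% were called by edgeR, 10.8% by DESeq2 and 25.6% had an unadjusted p under 0.05, so 0 and 2 of 10 are no more than the background. In a bulk sample, fewer cells of a type and less RNA per cell cannot be told apart. Of 10 smooth muscle contractile genes and targets of serum response factor (SRF), 8 were higher and 2 lower and 0 were called by edgeR or DESeq2 (2 at an unadjusted p under 0.05), with a median of 0.22 on the log2 scale. The 2 lower ones were Cnn1 (23.8 ± 6.15 CPM in FA, 20.8 ± 6.75 in DE) and Myl9, a regulatory light chain (579 ± 120 and 484 ± 56.1). Among the 8 higher ones, Cald1 (122 ± 16.1 and 152 ± 9.96 CPM) did not overlap between groups, while Smtn (100.1 ± 3.49 and 119 ± 17.6) and Tagln (29.1 ± 6.92 and 37.8 ± 25.7) did. Of 8 atrial markers, 5 were higher and 3 lower in DE (median 0.16), although their sum was 556 to 1323 CPM in FA and 545 to 834 CPM in DE through Nppa (704 ± 260 and 398 ± 80.4 CPM). In this list 0 were called by edgeR's quasi-likelihood test, 2 by DESeq2 and 3 at an unadjusted p under 0.05, and the part of atrial cells in the difference of Acta2 was not tested.

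Actc1 (chr2:114047282-114052875), the alpha actin of the adult heart, was 11432, 12824, 11476 and 15548 CPM in FA replicates 2, 3, 4 and 6, and 10593, 9827, 10849 and 13271 CPM in DE replicates 1, 7, 3 and 5. The groups overlapped through DE replicate 5 (log2 fold change -0.20, SE 0.13, edgeR quasi-likelihood, adjusted p = 0.353). Acta1 (chr8:123891758-123894775), the skeletal alpha actin, which is also raised in hypertrophy, was 45.5, 42.2, 45.6 and 74.0 CPM in FA and 43.5, 31, 51.1 and 41.2 CPM in DE, in the same order of replicates. Its log2 fold change was -0.31 (SE 0.19, edgeR quasi-likelihood, adjusted p = 0.335), and without FA replicate 6 it was -0.09. Point estimates of all 3 actins were below 0, which held under each of the 20 other fits run for each gene.

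Among the alpha actins, Actc1 made up 93.6% ± 0.535 per kilobase in FA and 95% ± 0.874 in DE (SD, n = 4). Acta2 made up 6.02% ± 0.495 and 4.63% ± 0.856, and Acta1 0.381% ± 0.0555 and 0.365% ± 0.0744. Counts of Acta2 per count of Actc1 were 0.0811, 0.0864, 0.0885 and 0.0997 in FA replicates 2, 3, 4 and 6 and 0.0869, 0.0644, 0.0604 and 0.0583 in DE replicates 1, 7, 3 and 5. DE replicate 1 lay among the FA libraries and the other 3 DE libraries lay below them. The ratio to Actc1 did not overlap for 17.3% of tested genes. The log2 difference was -0.41 (SE 0.15, exact two-sided permutation p = 0.0857, 0.214 after adjustment over the 5 ratios). It was -0.25 within prefix 11 (exact permutation p = 0.267) and -0.54 without DE replicate 1 (exact permutation p = 0.0286). The Acta1 to Actc1 ratio was 0.00400 ± 0.000601 in FA and 0.00377 ± 0.000777 in DE (exact permutation p = 0.543).

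**Figure D3:**
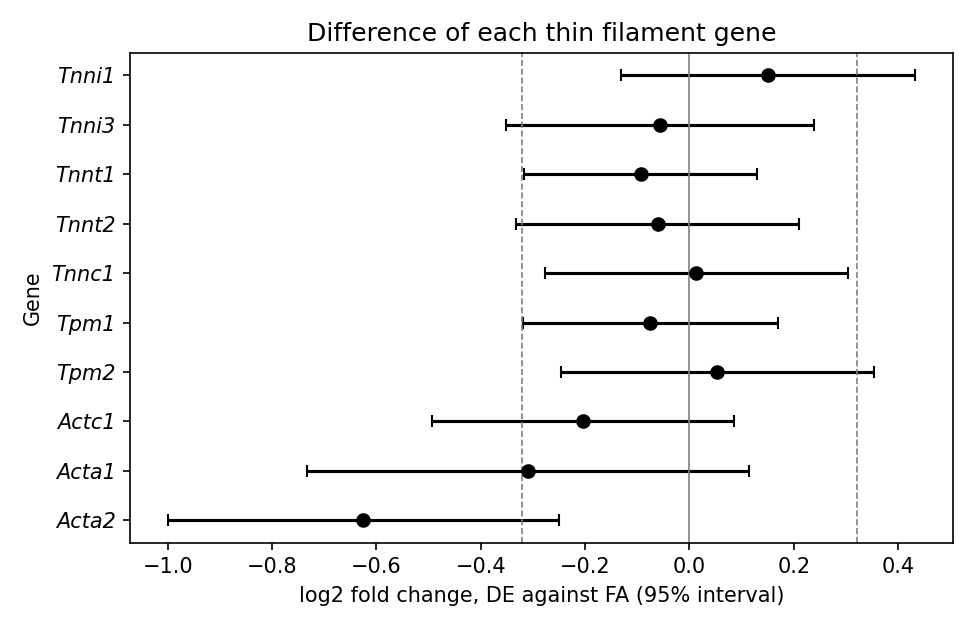
Log2 fold change of DE against FA for each of the 10 genes, with 95% intervals from the fit across all genes and dashed lines at a 25% difference in either direction. Only the interval of Acta2 lies wholly below 0, from -1.0 to -0.25, and those of the other 9 genes include 0.

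Striated alpha actin genes carry CArG boxes, the elements that SRF binds, close to their start sites, and the promoters of Actc1 and Acta1 are shown as the only 2 of the 10 genes in which this search found one. The search took only A and T bases between the CC and GG of the box and allowed no mismatch. Acta2, the actin with the lowest log2 fold change, had no match to that strict pattern and is not shown. Its window does hold CCCTATATGG and CCTTGTTTGG, each with 1 C or G within the core. The lack of a strict match is therefore not evidence that Acta2 lacks such elements. The lines give the 100 bases from position -130 to -31 relative to the RefSeq start site in GRCm38, on the minus strand, with the CArG box in capitals. They stand for chr2:114052906-114053005 and chr8:123894806-123894905.
Actc1: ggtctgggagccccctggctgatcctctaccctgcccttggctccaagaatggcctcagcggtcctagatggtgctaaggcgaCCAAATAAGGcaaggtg
Acta1: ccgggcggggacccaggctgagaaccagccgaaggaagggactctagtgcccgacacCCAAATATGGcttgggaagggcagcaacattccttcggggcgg
Searched on both strands in the 250 bases upstream of the start, a CArG box was found at -47 to -38 in Actc1 and at -73 to -64 in Acta1, in 2 of the 10 genes, against 1.47% of 32851 mouse promoters. The MCAT element CATTCC, a binding element of TEAD factors, was found in 5 of the 10 (Tnnt2, Tnnc1, Tpm1, Acta1 and Acta2), against 12.6% of promoters. TATAAA was found in 2 (12.4% of promoters), the GATA element AGATAA in 1 (9.99%) and a MEF2 site in 0 (0.508%), with no overlap between motifs. A match describes the letters of this window and not binding. Of 14 regulators in the SRF and myocardin pathway and other cardiac factors, 0 were called by edgeR's quasi-likelihood test, 2 by DESeq2 and 3 had an unadjusted p under 0.05, and 10 were lower and 4 higher (median -0.16). Over all tested genes, 5.8% were called by edgeR, 10.8% by DESeq2, 25.6% had an unadjusted p under 0.05 and 49.5% were lower. Srf itself was 133 ± 23.3 CPM in FA and 157 ± 24.1 in DE. Its cofactor Myocd was 131 ± 28.6 and 91.7 ± 33.4 CPM, and Mef2d was 115 ± 26.9 and 78.2 ± 9.05 CPM (log2 fold change -0.56, edgeR quasi-likelihood, adjusted p = 0.0677).

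Differences that passed the test were found among thin filament isoforms outside the 10 genes. Of 8 such isoforms, 2 rose in DE (25%, against 3.58% of all tested genes) and 0 fell (the median log2 fold change of the 8 was 0.46), and both were tropomyosin genes with cytoskeletal products. Counts per gene do not tell which product of a gene rose. Tpm3 was 123, 116, 127 and 144 CPM in FA replicates 2, 3, 4 and 6 and 161, 188, 216 and 167 CPM in DE replicates 1, 7, 3 and 5 (log2 fold change 0.52, SE 0.12, edgeR quasi-likelihood, adjusted p = 0.0278). Tpm4 was 173, 150, 182 and 240 CPM in FA and 269, 289, 381 and 278 CPM in DE, in the same order (log2 fold change 0.71, SE 0.16, edgeR quasi-likelihood, adjusted p = 0.0282). Neither gene overlapped between groups. The quasi-likelihood test of edgeR did not call the cytoplasmic actins, with Actb at 322 ± 62.1 CPM in FA and 448 ± 64.6 in DE (adjusted p = 0.0784, but 0.0309 by DESeq2 and 0.0327 by the likelihood ratio test, which both called it) and Actg1 at 206 ± 39.7 and 279 ± 60.6 (adjusted p = 0.135). Actg2, the gamma actin of smooth muscle, was scarce at 2.44 ± 0.523 CPM in FA and 4.50 ± 2.01 in DE, and its log2 fold change of 0.89 was the largest of the 8 (adjusted p = 0.0965 by edgeR's quasi-likelihood test, but 0.0365 by DESeq2 and 0.0440 by the likelihood ratio test, which both called it). Skeletal muscle isoforms were scarce too, with Tnni2 at 2.77 ± 0.653 CPM, Tnnt3 at 1.14 ± 0.352 and Tnnc2 at 0.640 ± 0.347 in FA. Of 14 skeletal muscle markers, 9 could be tested and 0 were called by edgeR or DESeq2 (2 at an unadjusted p under 0.05). Over all tested genes, edgeR's quasi-likelihood test called 5.8% and DESeq2 10.8%, and 25.6% had an unadjusted p under 0.05.

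The summed level of 10 fibroblast markers was 2209 to 3753 CPM in FA and 3922 to 6583 CPM in DE, all 10 were higher in DE and 3 were called (Col1a1, Dcn and Dpt), and the part of fibroblasts in the rise of Tpm3 and Tpm4 was not tested. Endothelial markers were higher in DE for 9 of 10 with 0 called by edgeR's quasi-likelihood test, 3 by DESeq2 and 5 at an unadjusted p under 0.05. Leukocyte markers, at 12.8 to 26.7 CPM in sum over all libraries, were higher for 5 of 6 tested with 1 called (Itgam). Erythroid markers summed to 759 to 1879 CPM in FA and 1208 to 2021 CPM in DE, and all 6 tested were higher in DE with 1 called (Slc4a1). Over all tested genes, the shares to set beside these counts were 5.8% called by edgeR (3.58% higher in DE), 10.8% by DESeq2 and 25.6% at an unadjusted p under 0.05. Neither tropomyosin was called with the prefix as a term, where the log2 fold changes were 0.45 for Tpm3 and 0.58 for Tpm4 (edgeR quasi-likelihood, adjusted p = 0.0953 and 0.103). Leaving out FA replicate 2, 3 or 4 or DE replicate 3 also took both past the threshold, with adjusted p between 0.0647 and 0.0950, and leaving out DE replicate 7 took Tpm3 past it (adjusted p = 0.0508).

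Of 28 tested genes for thin filament length and assembly, 1 fell (3.57%, against 2.22% of all tested genes, a share near the background) and 0 rose, 16 being lower and 12 higher, with a median of -0.10. The one that fell was Xirp2, an actin-binding protein of the intercalated disc, at 52.0, 33.2, 57.8 and 52.8 CPM in FA replicates 2, 3, 4 and 6 and 33.8, 19.8, 27.3 and 25.2 CPM in DE replicates 1, 7, 3 and 5. Its log2 fold change was -0.88 (SE 0.19, edgeR quasi-likelihood, adjusted p = 0.0247), although FA replicate 3 lay below DE replicate 1. The call was lost with the prefix as a term (-0.86, adjusted p = 0.0744), with offsets for length and GC content (-0.52, adjusted p = 0.0912), and without FA replicate 2 or 4 or DE replicate 3 or 5 (-0.90 to -0.80, adjusted p between 0.0524 and 0.0791). Its relative Xirp1 was 510 ± 54.3 CPM in FA and 384 ± 38.1 in DE and was not called (adjusted p = 0.0535). Tmod1, which caps the pointed end of the filament, was 262 ± 18 and 212 ± 25 CPM (adjusted p = 0.104), and Lmod2, which lengthens it, was 290 ± 33.7 and 270 ± 31.2 CPM (adjusted p = 0.597). Values for Neb (10.1 ± 1.65 and 7.30 ± 0.722 CPM, adjusted p = 0.0762) and its cardiac relative Nebl (191 ± 57.3 and 119 ± 58.4 CPM, adjusted p = 0.208) were likewise short of the threshold. Among members with higher values in DE were the actin-severing cofilin Cfl1 (280 ± 32.6 and 355 ± 46.4 CPM, adjusted p = 0.112), Cap1 (43.5 ± 2.12 and 54.5 ± 9.30 CPM, adjusted p = 0.131) and the actin-binding thymosin Tmsb10 (134 ± 20.8 and 173 ± 33.3 CPM, adjusted p = 0.154), none of them called by edgeR's quasi-likelihood test.

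**Figure D4:**
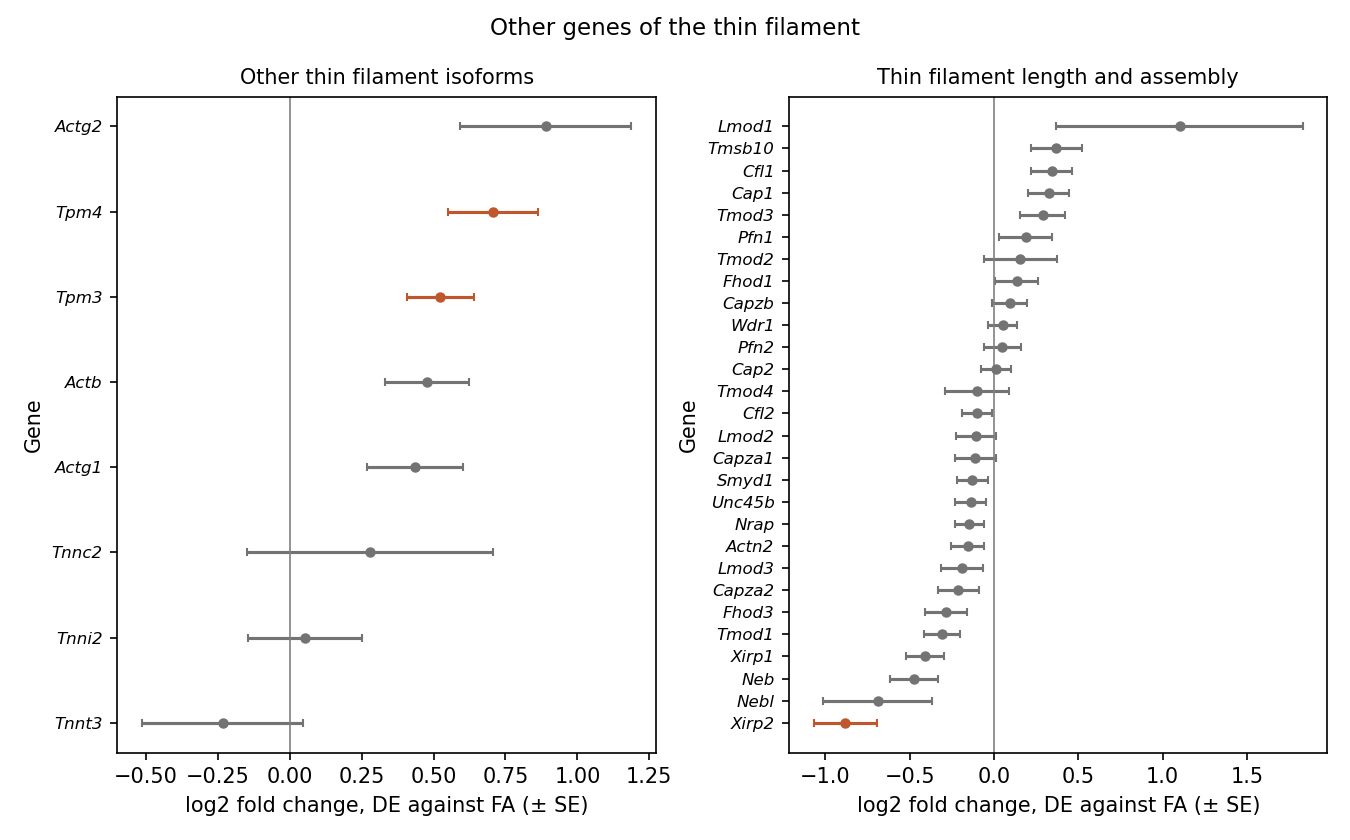
Log2 fold change of DE against FA, with SE bars, for 8 other thin filament isoforms (left) and 28 genes of filament length and assembly (right), called genes in orange. Tpm3 (0.52) and Tpm4 (0.71) are the called genes on the left and Xirp2 (-0.88) is the one on the right.

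Among 13 contractile partners, 4 were called (30.8%, against 5.8% of all tested genes). Myh6 fell (log2 fold change -0.67) and Myh7 rose (0.53), and the calcium pump Atp2a2 (-0.51) and its inhibitor Pln (-0.38) fell, while the ventricular light chains Myl2 (-0.05) and Myl3 (-0.07) were not called. The 10 isoform genes and these light chains had log2 fold changes between -0.63 and 0.15, 7 of the 10 thin filament values being smaller in size than the median absolute difference of all genes, 0.20.

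By likeness over the 8 libraries (Pearson's r of log2 CPM among 9180 genes of at least 10 CPM), the genes that followed Tnni1 most closely were Atpif1 (r = 0.998), Rps28 (0.992) and Eif5a (0.992). Those most like Tnni3 were Tomm22 (0.996), Ss18l2 (0.990) and Kxd1 (0.988). All 6 have short transcripts, between 387 and 1284 bases, against a median of 2729 bases over tested genes, and share libraries and depth with the troponins. Acta2 was most like Mtpap (0.977) and Gart (0.957), and Acta1 most like Fkbp10 (0.903), Rexo4 (0.900) and Gm16973 (0.896). With the dependence on transcript length and GC content taken out of every library by offsets, Tnni1 turned to -0.05 and Tnni3 to -0.25 on the log2 scale, and the difference of their ratio stayed at 0.20. The adjusted p of Tnni3 was then 0.0484, with a difference below 25% and so no call.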

How the data were processed

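Poly-A RNA of NCMs from 4 FA and 4 DE neonates was sequenced as stranded libraries. The authors aligned reads to mm10 with TopHat, marked duplicates without removing them with Picard, realigned with GATK, and counted fragments with featureCounts, and they deposited raw counts per Entrez gene without normalization. Versions of TopHat and featureCounts, the strand setting and the handling of reads with several matches are not given in the sources used here, and retained duplicates make counting precision look better than it is. Of 27179 genes, 25275 (93.0%) could be matched to a symbol and 1904 stayed in the totals without one.

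Genes were filtered with filterByExpr (minimum count 10), normalized by TMM, and compared by exposure alone with the quasi-likelihood functions glmQLFit and glmQLFTest of edgeR 4.0.16 (R 4.3.3), as the study's methods name edgeR and a 25% difference. P-values were adjusted over all 14966 tested genes. The biological coefficient of variation was 15.9%. CPM are scaled by the same factors, and levels between genes were divided by the median length of the annotated protein-coding transcripts (GENCODE, GRCm38). Gene positions and promoters are from RefSeq (GRCm38.p6). Ratios are of counts within a library, compared on the log2 scale by exact two-sided permutation over the 70 splits of 4 against 4 libraries, with Benjamini-Hochberg adjustment over 5 ratios. Totals ran from 17943024 to 39839737 counts, so even Tnnt1 had at least 652 counts in each library. The methods state fewer libraries per group than the 4 used here, and all 8 were kept. No libraries of a group agreed within sampling noise.

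Genes named in the text are the 10 isoforms, each list gene that was called, the 3 genes most like each of 4 isoforms, genes adjoining an isoform, and Myh6 and Myh7 as a reference. Of these, 1 is not reported here. Further list genes are named as examples, chosen after their values were seen. The 10 genes and the lists were chosen with earlier results of these data known. Other settings tried were the likelihood ratio test of edgeR, DESeq2 1.42.0, a built-in 25% difference, other scaling factors and filters, the name prefix, length and GC offsets (splines with 5 degrees of freedom, known for 92.5% of tested genes), and each library left out. The code was tested on simulated data.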

Additional observations from a re-analysis of the deposited data

Results flagged for a closer look

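Dixon's ratio, the gap of the highest or lowest library to its nearest neighbour divided by the range of the group, was computed for 30 groups of 4 libraries, namely the CPM of each of the 10 genes and the 5 count ratios in FA and in DE. It passed the 95% critical value of 0.829 in 2 groups, and chance alone passes it in about 1 in 20 groups. Tpm2 in FA had a ratio of 0.973, where FA replicate 6 was at 97.1 CPM and the other 3 libraries were between 71.6 and 72.3 CPM. Acta1 in FA had a ratio of 0.893, where FA replicate 6 was at 74.0 CPM and the others were between 42.2 and 45.6 CPM. FA replicate 6 was also the highest FA library for Acta2 (1550 CPM) and Actc1 (15548 CPM), and it had the highest FA level of atrial markers (1323 CPM in sum, against 556 to 1102 in the other FA libraries), skeletal muscle markers (38.6 against 21.0 to 28.6 CPM), fibroblast markers (3753 against 2209 to 3340 CPM) and endothelial markers (1459 against 1105 to 1346 CPM), whose part in these values was not tested. It was not the highest FA library for smooth muscle and pericyte markers (775 CPM, against 630 to 865 in the others). Nor was it for cardiomyocyte (64427 against 60779 to 65704 CPM), erythroid (955 against 759 to 1879 CPM) or leukocyte markers (15.9 against 12.8 to 18.8 CPM). Without FA replicate 6, the log2 fold change was 0.17 for Tpm2, -0.09 for Acta1, -0.45 for Acta2 and -0.10 for Actc1.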

How the results depend on the processing

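Each gene was fitted in 20 other ways, 8 of which left out 1 library. Of 200 such values for the 10 genes, 177 kept their direction and side of the threshold. Acta2 was called with DESeq2 (-0.63), the likelihood ratio test (-0.63), no filter on low counts (-0.62), length and GC offsets (-0.65) and without DE replicate 1 (-0.74), and its values without 1 library ran from -0.74 to -0.45 (adjusted p from 0.00936 to 0.320 over all fits). The sign changed in 18 fits of genes whose differences were small. With library totals alone it did so for Tnni3 (0.014) and Tnnt2 (0.0093). With prefix as a term it did so for Tnni1 (-0.0047), Tnnc1 (-0.11) and Tpm2 (-0.12), with prefix 11 alone for Tnni1 (-0.0097), Tnnc1 (-0.11) and Tpm2 (-0.12), and with offsets for Tnni1 (-0.050), Tnnc1 (-0.15) and Tpm2 (-0.038). With offsets, Tnni3 (-0.25, adjusted p = 0.0484) and Tnnt1 (-0.27, adjusted p = 0.0469) passed the p threshold but not the 25% difference, whereas Actc1 (-0.30) and Acta1 (-0.49) had adjusted p of 0.0594 and 0.0699. Without 1 library, values ran from -0.069 to 0.11 for Tnnc1, -0.14 to 0.052 for Tnni3, -0.15 to 0.023 for Tnnt2, -0.0044 to 0.17 for Tpm2, 0.17 to 0.22 for the Tnni1 to Tnni3 ratio, -0.10 to 0.0082 for the Tnnt1 to Tnnt2 ratio and -0.54 to -0.35 for the Acta2 to Actc1 ratio. The Tnni1 to Tnni3 ratio kept its direction in all 12 other settings, at 0.18 with prefix 11 alone. The cause of these changes was not tested.

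Counts of called genes depended more on the test. In all, DESeq2 called 1620 (911 higher, 709 lower), the likelihood ratio test 1603 (933 and 670), offsets 1550 (843 and 707), prefix as a term 448 (266 and 182), prefix 11 alone 260 (143 and 117) and the built-in 25% difference 114 (44 and 70). Library totals alone gave 1020 (803 and 217). Without 1 library, 237 to 1168 were called (123 to 641 higher, 112 to 527 lower). Among the other isoforms DESeq2 and the likelihood ratio test called 4 each, and among the assembly genes 3 each, whereas the built-in difference and both prefix fits called 0 in either list. Leaving out 1 library gave 0 to 3 and 0 to 2. With counts not divided by length, Tnni1 made up 49.8% of troponin I in FA and 53.3% in DE. No paired analysis was made, because the labels name no pairing of FA with DE libraries. With 4 libraries a group, no exact test could give a p under 0.0286.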
